A study of Mus musculus with 7 samples.

Results

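Chemokines are small secreted proteins that steer migrating cells, and their receptors are G protein-coupled receptors carried mostly by leukocytes. The set described here holds every gene of the deposited table whose symbol starts with Ccl, Cxcl, Ccr or Cxcr followed by a digit, together with Cx3cl1, Cx3cr1, Xcl1 and Xcr1. It has 58 genes of 26558 named genes, 38 ligands and 20 receptors. No member stood on more than 1 entry of the table.

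RNA was sequenced from 7 libraries of kidney endothelial cells of male C57BL/6 mice aged 3 months. The 4 mutant libraries came from Hoxb7-Cre-GFP; Vhlh loxP/loxP mice, which per the series title lack Vhlh, the mouse von Hippel-Lindau gene, in kidney tubules, and the 3 wildtype libraries came from mice that carry Hoxb7-Cre-GFP alone. Both groups thus carry the Cre and GFP transgene driven by Hoxb7, and the deletion is described as specific to tubules, so that the sequenced endothelial cells are neighbours of the deleted cells. Cells were pulled out with magnetic beads against Cd31, which endothelium carries and which platelets and some leukocytes carry too, and RNA was extracted with no culture step. Separate animals are not stated for the libraries of a group, and the p-values therefore reflect only how far these 7 libraries scatter, which may be technical.

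Endothelial cells display chemokines on heparan sulfate at their surface, where rolling leukocytes meet them. Most inflammatory chemokines are induced through NF-kB or interferon signalling and are made by macrophages as well as by endothelium and epithelium, whereas homeostatic chemokines such as Ccl21 and Cxcl12 are made steadily by lymphatic, vascular and stromal cells. Receptors sort the responding cells: Ccr2 and Cx3cr1 mark monocytes and macrophages, Ccr7 naive lymphocytes and migrating dendritic cells, and Cxcr7 is an atypical receptor of endothelium that scavenges Cxcl12.

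Levels are given in FPKM, which counts fragments relative to transcript length and library size, so they can be set side by side between genes. Genes with a mean of at least 1 FPKM over the 7 libraries were tested with limma on log2(FPKM + 1), and a call is a Benjamini-Hochberg adjusted p under 0.05 over all 13420 genes tested. Fold changes are mutant over wildtype on that same log2 scale, where the added 1 makes changes of weakly expressed genes look smaller. Of the members, 25 ligands and 11 receptors were tested. Cxcl3, Ccl19 and Ccr9 passed the filter only through their mutant mean. Of the others tested, 23 ligands and 10 receptors had a mean of at least 1 FPKM in both groups.

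Mononuclear phagocyte markers differed between the groups. Of 27 listed, all tested, 18 were lower in mutant libraries and 0 higher. Their summed level was 1196, 2543, 1180 and 1302 FPKM in mutant 1 to 4, against 4006, 5254 and 6318 FPKM in wildtype 1 to 3. Csf1r, the receptor that macrophages need to survive, averaged 53.8 ± 20.8 FPKM in mutant and 212 ± 57.2 FPKM in wildtype libraries (SD, n = 4 and 3). Of 22 endothelial markers 8 were higher and 0 lower, with sums of 4700 to 5410 FPKM in mutant and 2964 to 4437 FPKM in wildtype libraries. T and natural killer cell markers summed to 34.5 to 57.9 FPKM in mutant and 35.5 to 45.4 FPKM in wildtype libraries, with 3 of 12 tested higher and 1 lower. B and plasma cell markers summed to 38.6 to 70.9 and 67.8 to 90.8 FPKM in mutant and wildtype libraries, with 2 of 9 lower. Neutrophil markers summed to 24.0 to 146 and 46.6 to 109 FPKM in mutant and wildtype libraries, with 1 of 6 tested higher and 1 lower, and Ly6g, Mpo, Camp, Ngp and Elane were under 1 FPKM in all 7. Proximal tubule markers, with 0 of 15 called, summed to 1356 to 8548 and 3307 to 5977 FPKM in mutant and wildtype libraries. Distal nephron and collecting duct markers, with 4 of 15 higher, summed to 1903 to 2919 FPKM in mutant and 1592 to 1824 FPKM in wildtype libraries. Markers of pericytes and smooth muscle, with 1 of 11 tested higher and 1 lower, summed to 216 to 264 FPKM in mutant and 186 to 257 FPKM in wildtype libraries. Over all tested genes 7.34% were called lower and 8.76% higher, and none of these marker counts was tested against those shares. The part of these cell types in the results below was not tested. In such bulk samples, fewer cells of a type and less RNA per cell cannot be told apart.

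Of the 36 tested members 8 were lower in mutant libraries, 1 was higher and 27 did not pass the test. Over all tested genes, 7.34% were called lower, 8.76% higher and 16.1% in either direction, and the median log2 fold change was 0.04, against a median of -0.20 over the tested members. Ligands and receptors were set side by side. Of 25 ligands 4 were lower (Ccl3, Ccl4, Cxcl9 and Cxcl16) and 0 higher, by limma at an adjusted p under 0.05, and 6 had an unadjusted p under 0.05. Of 11 receptors 4 were lower, among them Cx3cr1, Ccr2 and Cxcr4, and 1 was higher (Ccr9), and 7 had an unadjusted p under 0.05. That unadjusted limma threshold was met by 4354 of all 13420 tested genes. The share called was 16.0% of the ligands, all of them lower, against 7.34% of all tested genes called lower and 16.1% in either direction. It was 45.5% of the receptors, a share that includes Ccr9, which passed the filter only through its mutant mean. The median log2 fold change was -0.13 for ligands, which ranged from -1.92 to 1.30, and -0.35 for receptors, which ranged from -2.16 to 0.74. The difference between the classes was not tested. Leaving out 1 library moved the counts most without mutant 2 (9 ligands lower, 2 receptors higher) and without wildtype 3 (1 receptor lower). Without mutant 1, mutant 4 or wildtype 2, 2 receptors were lower, and without any 1 wildtype library 0 were higher. Scaling libraries on endothelial markers, which moved the median of all genes to -0.37, left 8 ligands and 7 receptors lower and 0 of either higher, with 4136 genes lower and 139 higher in all, against 985 lower and 1176 higher otherwise. Other scalings moved that balance, to 805 lower and 576 higher after rescaling to the same total and to 1156 lower and 849 higher with median-of-ratios factors, with the same counts of 4 ligands lower, 4 receptors lower and 1 receptor higher.

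**Figure D1:**
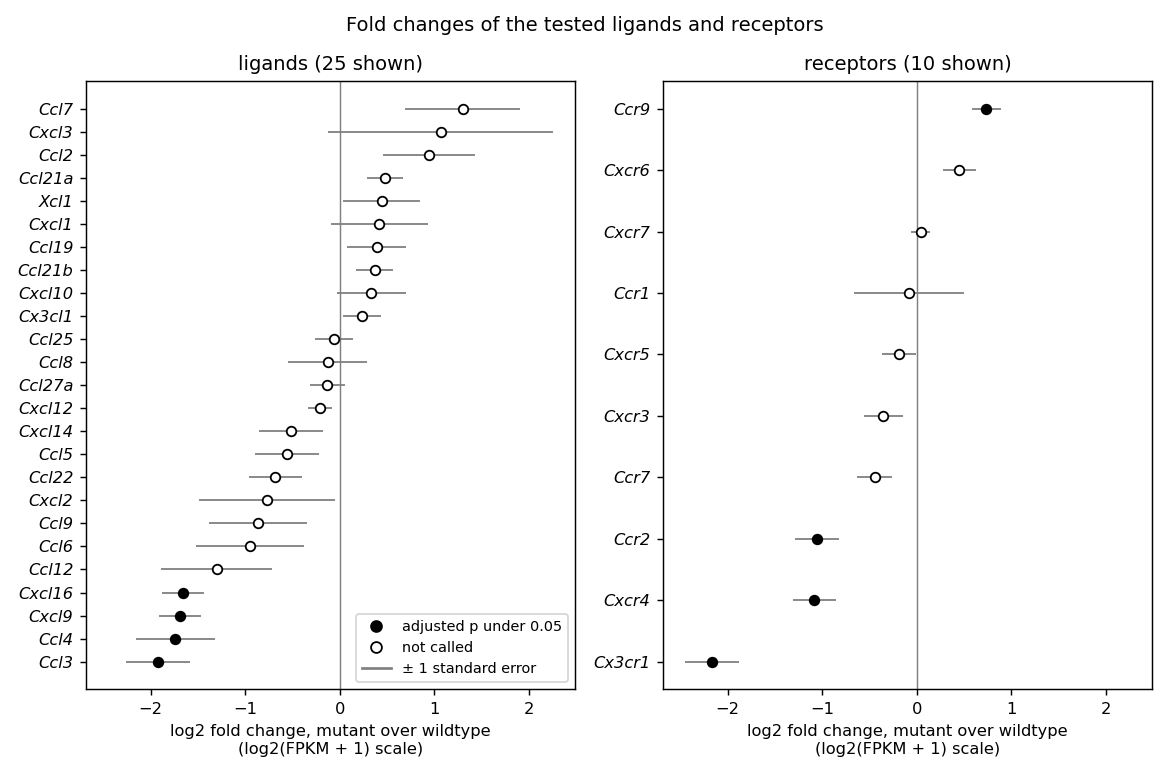
Log2 fold change, mutant over wildtype on the log2(FPKM + 1) scale, with 1 standard error (bars) for 25 ligands and 10 receptors, ordered within each class; filled points mark members past an adjusted p of 0.05. Called members lie at -1.06 and below, apart from Ccr9 at 0.74, while the ligands with the highest fold changes, Ccl7 at 1.30 and Cxcl3 at 1.07, have wide bars and did not pass.

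For 31.4% of all tested genes the 2 groups did not overlap, with every mutant library above every wildtype library for 18.9% and below for 12.5%. Among tested members this held upward for 1, Ccr9, and downward for 9. Those 9 are the 8 called lower and Ccl22, a ligand of the T cell receptor Ccr4.

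Ccl3 and Ccl4, inflammatory ligands that macrophages and activated lymphocytes secrete, had the highest mean levels of all members and were 3.52 and 3.01 times as high in wildtype as in mutant libraries. Ccl3 (chr11:83647844-83649355, GRCm38, minus strand) stood at 150.0, 306, 99.9 and 209 FPKM in mutant 1 to 4, against 580.3, 708 and 732 FPKM in wildtype 1 to 3. Ccl4 (chr11:83662584-83664683, plus strand), its neighbour on the chromosome, stood at 199.5, 373, 96.2 and 288 FPKM in mutant 1 to 4, against 591, 761 and 808 FPKM in wildtype 1 to 3. In both genes mutant 2 was the highest mutant library and mutant 3 the lowest, and no mutant library reached the lowest wildtype one. Ccl3 averaged 191 ± 88.6 FPKM in mutant and 673 ± 81.5 FPKM in wildtype libraries (SD, n = 4 and 3), a log2 fold change of -1.92 ± 0.34 (SE) with a limma adjusted p of 0.00957. Ccl4 averaged 239 ± 119 and 720.0 ± 114 FPKM in mutant and wildtype libraries, a log2 fold change of -1.74 ± 0.42 with a limma adjusted p of 0.0300. The call for Ccl4 was lost without mutant 1 (limma adjusted p 0.0710) and without wildtype 1, 2 or 3 (0.0598, 0.11 and 0.0953). It was also lost with no filter on low values (0.0599), while Ccl3 stayed past the threshold whichever library was left out. With the replicate number as a block neither gene was called (limma adjusted p 0.0551 for Ccl3 and 0.0926 for Ccl4).

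Cxcl9 and Cxcl16 fell as well. Cxcl9, an interferon-gamma-induced ligand of Cxcr3 (chr5:92321347-92328079, minus strand), stood at 1.46, 1.94, 1.54 and 3.60 FPKM in mutant 1 to 4, against 7.47, 9.79 and 9.29 FPKM in wildtype 1 to 3. Its means were 2.14 ± 1.00 FPKM in mutant and 8.85 ± 1.22 FPKM in wildtype libraries, with a log2 fold change of -1.69 ± 0.22 and a limma adjusted p of 0.0031. Cxcl16, a transmembrane chemokine and scavenger receptor that binds Cxcr6 (chr11:70453983-70459984, minus strand), stood at 33.4, 50.0, 25.1 and 35.4 FPKM in mutant 1 to 4, against 91.4, 120.3 and 129 FPKM in wildtype 1 to 3. It averaged 36.0 ± 10.4 FPKM in mutant and 113 ± 19.5 FPKM in wildtype libraries, with a log2 fold change of -1.66 ± 0.22 and a limma adjusted p of 0.00345. Both calls held in every alternative run, with adjusted p-values of at most 0.0228 for Cxcl9 and 0.0408 for Cxcl16. An exon of Cxcl16 overlaps Zmynd15 on the opposite strand, which was also lower, at 5.95 to 8.94 FPKM in mutant and 23.5 to 29.6 FPKM in wildtype libraries. Whether counting used strand is not given in the sources used here, so reads of these genes may be shared.

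Of the 4 tested myeloid receptors 3 were lower, beside 7.34% of all tested genes. Cx3cr1, the receptor of Cx3cl1 on monocytes and resident macrophages (chr9:119901616-120069879, minus strand), stood at 9.52, 22.7, 13.6 and 12.5 FPKM in mutant 1 to 4, against 51.4, 62.1 and 88.3 FPKM in wildtype 1 to 3. Its means were 14.6 ± 5.68 and 67.3 ± 19.0 FPKM in mutant and wildtype libraries, the log2 fold change was -2.16 ± 0.28 and the limma adjusted p 0.0032, and every alternative kept the call, with adjusted p-values of at most 0.0338. Of the members tested, Cx3cr1 had the most negative fold change.

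Ccr2, the receptor that brings monocytes out of bone marrow (chr9:124101950-124113557, plus strand), stood at 8.35, 15.8, 9.03 and 9.35 FPKM in mutant 1 to 4, against 27.1, 17.0 and 24.6 FPKM in wildtype 1 to 3. Mutant 2 lay well above the other mutant libraries and close to the lowest wildtype library, without passing it. Ccr2 averaged 10.6 ± 3.46 FPKM in mutant and 22.9 ± 5.23 FPKM in wildtype libraries, with a log2 fold change of -1.06 ± 0.23 and a limma adjusted p of 0.0219. The call was lost without mutant 1 or 4 (limma adjusted p 0.0577 and 0.0533) and without wildtype 1 or 3 (0.0724 and 0.0766). Ccr1, a myeloid receptor that Ccl3, Ccl5, Ccl6 and Ccl9 bind, stood at 2.86, 12.2, 1.02 and 1.53 FPKM in mutant 1 to 4, against 3.53, 2.51 and 3.79 FPKM in wildtype 1 to 3. It did not pass (log2 fold change -0.08, limma adjusted p 0.946), and its sign turned without mutant 3 or 4 or wildtype 3.

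Cxcr4, the receptor of Cxcl12 carried by many leukocytes and by sprouting endothelium (chr1:128588199-128592293, minus strand), stood at 36.9, 50.9, 30.0 and 27.6 FPKM in mutant 1 to 4, against 59.5, 90.0 and 81.9 FPKM in wildtype 1 to 3. The means were 36.4 ± 10.5 and 77.2 ± 15.8 FPKM in mutant and wildtype libraries, with a log2 fold change of -1.08 ± 0.23 and a limma adjusted p of 0.0185. The call was lost without wildtype 2 or 3 (limma adjusted p 0.0833 and 0.0672). The mean level of Cxcr4 was the highest of any receptor in both groups, and even the wildtype library with the least of it lay above all 4 mutant libraries.

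Ccr9 was the 1 member called higher. Known as the gut-homing receptor of Ccl25 on T cells (chr9:123678439-123784330, plus strand), it stood at 1.33, 1.55, 1.68 and 2.62 FPKM in mutant 1 to 4, against 0.641, 0.624 and 0.695 FPKM in wildtype 1 to 3. The groups did not overlap, and the wildtype libraries lay close together. Ccr9 averaged 1.80 ± 0.568 FPKM in mutant and 0.653 ± 0.0372 FPKM in wildtype libraries, with a log2 fold change of 0.74 ± 0.16 and a limma adjusted p of 0.0192. Its level was low, the wildtype mean was under the filter, and the call was lost without wildtype 1, 2 or 3 (limma adjusted p 0.0563, 0.0788 and 0.0574) and when libraries were scaled on endothelial markers (0.199). Exons of Ccr9 overlap Gm17200 on the same strand and Slc6a20a on the opposite one. Slc6a20a stood at 0.725 to 1.83 FPKM in mutant and 0.862 to 1.43 FPKM in wildtype libraries, with a limma adjusted p of 0.721.

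**Figure D2:**
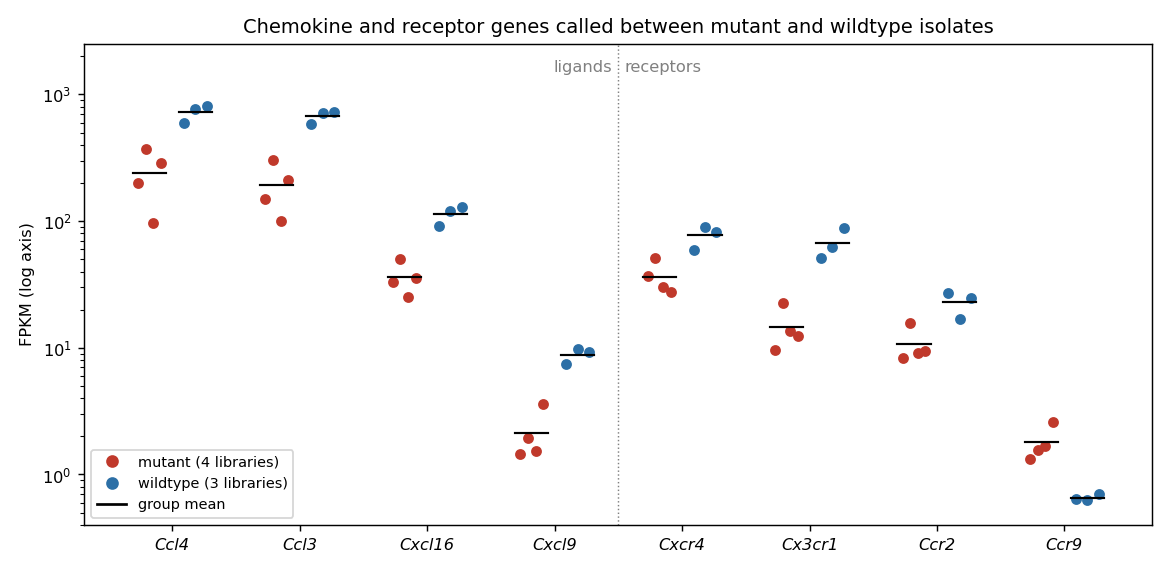
FPKM (log axis) in each library for 8 of the called members, mutant left and wildtype right for each gene, with the group mean as a bar. The groups do not overlap for any of them; mutant 2 is the highest mutant library for 6 of the 8 genes, and its Ccr2 (15.8 FPKM) lies just under the lowest wildtype library (17.0 FPKM).

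The promoters of 3 neighbouring neutrophil ligands on chromosome 5, Cxcl1, Cxcl2 and Cxcl3, are printed because these ligands were highest in the same mutant library, and those of Cxcl10 and Cxcl9 because of these ligands of 1 receptor Cxcl9 was called lower and Cxcl10 was not. Each runs 5′ to 3′ on the strand of the gene from 250 bases before the transcription start to 50 bases after it (RefSeq, GRCm38.p6): Cxcl1 at chr5:90890995-90891294, Cxcl2 at chr5:90903649-90903948 and Cxcl3 at chr5:90785851-90786150, all plus strand, and Cxcl10 at chr5:92348840-92349139 and Cxcl9 at chr5:92328030-92328329, both minus strand. Capitals mark matches to the NF-kB motif GGGANNTTCC and the IRF motif GAAANNGAAA, searched on both strands.
Cxcl1 promoter: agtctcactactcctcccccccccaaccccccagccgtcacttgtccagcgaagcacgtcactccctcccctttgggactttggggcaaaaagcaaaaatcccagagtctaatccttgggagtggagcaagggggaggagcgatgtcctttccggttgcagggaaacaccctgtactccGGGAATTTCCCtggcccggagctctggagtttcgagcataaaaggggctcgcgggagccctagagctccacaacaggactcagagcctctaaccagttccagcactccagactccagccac
Cxcl2 promoter: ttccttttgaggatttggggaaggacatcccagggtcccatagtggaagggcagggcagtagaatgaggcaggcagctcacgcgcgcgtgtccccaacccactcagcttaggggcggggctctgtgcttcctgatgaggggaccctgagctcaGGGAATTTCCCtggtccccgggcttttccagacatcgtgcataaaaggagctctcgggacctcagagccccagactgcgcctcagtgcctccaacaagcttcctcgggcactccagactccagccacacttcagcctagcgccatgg
Cxcl3 promoter: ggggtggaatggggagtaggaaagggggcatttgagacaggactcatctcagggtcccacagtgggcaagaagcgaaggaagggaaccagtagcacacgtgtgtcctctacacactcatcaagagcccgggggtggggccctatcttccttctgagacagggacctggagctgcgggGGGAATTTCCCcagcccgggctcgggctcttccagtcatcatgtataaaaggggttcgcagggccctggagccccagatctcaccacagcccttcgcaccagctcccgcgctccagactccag
Cxcl10 promoter: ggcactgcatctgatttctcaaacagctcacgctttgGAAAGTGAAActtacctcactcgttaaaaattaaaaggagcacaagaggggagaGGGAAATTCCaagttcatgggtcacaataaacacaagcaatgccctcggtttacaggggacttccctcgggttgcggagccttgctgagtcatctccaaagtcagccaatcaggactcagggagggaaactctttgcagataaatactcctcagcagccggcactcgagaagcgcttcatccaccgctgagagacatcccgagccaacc
Cxcl9 promoter: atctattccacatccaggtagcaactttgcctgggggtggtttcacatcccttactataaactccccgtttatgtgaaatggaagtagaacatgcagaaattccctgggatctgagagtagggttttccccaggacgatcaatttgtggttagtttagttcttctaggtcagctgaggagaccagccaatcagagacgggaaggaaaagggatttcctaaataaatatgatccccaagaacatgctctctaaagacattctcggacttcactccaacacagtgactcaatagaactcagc

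In Cxcl1, Cxcl2 and Cxcl3 the capitals are an NF-kB match that starts 71, 97 and 73 bases before the start site, read on both strands in overlapping copies. In Cxcl10 they are an IRF match 213 bases and an NF-kB match 159 bases before it, and the Cxcl9 window held neither motif. The NF-kB letters occurred in 6 of 50 member promoters (Cxcl1, Cxcl2, Cxcl3, Cxcl10, Ccl1 and Ccr3), against 1.467% of all 32851 promoters in the table. The IRF letters occurred in 3 member promoters (Cxcl10, Cxcl14 and Ccl19), against 3.443% of all. The core of the hypoxia response element, ACGTG on either strand, occurred in 7 member promoters, among them Cxcl1 and Cxcl3, a share of 14.0% against 19.625% of all. A match describes these letters in this window and is no evidence that a factor binds there.

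The other members with the highest levels did not pass the test. Cxcl2, which draws neutrophils through Cxcr2, stood at 81.0, 301, 25.3 and 93.9 FPKM in mutant 1 to 4, against 100.3, 151 and 223 FPKM in wildtype 1 to 3, so that the mutant libraries alone spanned more than the wildtype range (log2 fold change -0.77 ± 0.72, limma adjusted p 0.508). Ccl21a, made by lymphatic endothelium and bound by Ccr7, stood at 79.7, 79.97, 82.9 and 92.4 FPKM in mutant 1 to 4, against 62.9, 79.7 and 42.5 FPKM in wildtype 1 to 3 (log2 fold change 0.48 ± 0.19, limma adjusted p 0.131). Cxcl10, an interferon-induced ligand of Cxcr3 like Cxcl9, stood at 94.8, 121, 39.2 and 76.6 FPKM in mutant 1 to 4, against 44.0, 66.5 and 75.2 FPKM in wildtype 1 to 3 (log2 fold change 0.34 ± 0.37, limma adjusted p 0.571). Cxcl10 was thus not called where Cxcl9 was, a difference between the genes that was not tested, and its sign turned when libraries were scaled on endothelial markers (log2 fold change -0.07). Ccr7, the receptor of Ccl19 and Ccl21, stood at 10.7, 7.94, 12.4 and 10.8 FPKM in mutant 1 to 4, against 11.4, 18.9 and 13.9 FPKM in wildtype 1 to 3 (log2 fold change -0.44 ± 0.19, limma adjusted p 0.147). Of the sequence of Ccl21a 61.3% in 75-base stretches, and of Ccl21b 100%, also occurs in other annotated genes, each other among them, so their levels are uncertain.

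For several ligands of neutrophils and monocytes the SD among mutant libraries exceeded the difference between the group means. Mutant 2 held the highest mutant value for 14 of the 25 tested ligands (56.0%) and 5 of the 11 tested receptors (45.5%), against 18.7% of all tested genes. In the same library the phagocyte markers summed to 2543 FPKM and the neutrophil markers to 146 FPKM, also the highest of the mutant libraries, and their part in these ligand levels was not tested. Cxcl1, which shares the NF-kB match of Cxcl2 and Cxcl3 and likewise acts through Cxcr2, stood at 61.2, 113, 20.3 and 50.1 FPKM in mutant 1 to 4, against 27.7, 37.8 and 53.7 FPKM in wildtype 1 to 3 (log2 fold change 0.42, limma adjusted p 0.617). Cxcl3 stood at 0.809, 41.3, 0.0711 and 0.271 FPKM in mutant 1 to 4, against 0.393, 0.591 and 0.596 FPKM in wildtype 1 to 3. Mutant 2 alone lifted Cxcl3 past the filter, and its log2 fold change of 1.07 came with a limma adjusted p of 0.584. Ccl24, an eosinophil ligand of Ccr3 made by macrophages, had the same shape at 0.126, 5.30, 0.119 and 0.190 FPKM in mutant 1 to 4, against 0.102 to 0.159 FPKM in wildtype libraries, and stayed under the filter.

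None of the 4 ligands of monocytes passed the test (0 of 4, by limma at an adjusted p under 0.05, and 0 at an unadjusted p under 0.05). Of all 13420 tested genes 16.1% passed it in either direction, and 4354 had an unadjusted limma p under 0.05. Ccl2, the main ligand of Ccr2, stood at 34.6, 139, 78.6 and 31.3 FPKM in mutant 1 to 4, against 25.2, 31.0 and 34.8 FPKM in wildtype 1 to 3 (log2 fold change 0.95 ± 0.49, limma adjusted p 0.226). Ccl7, which also binds Ccr2, stood at 13.7, 103, 38.2 and 18.6 FPKM in mutant 1 to 4, against 10.1, 11.3 and 16.3 FPKM in wildtype 1 to 3 (log2 fold change 1.30 ± 0.61, limma adjusted p 0.185). Mutant 2 and mutant 3 were the libraries with most of both, and the other mutant libraries lay near the wildtype range. Ccl12, a mouse ligand of Ccr2, stood at 10.7, 65.7, 9.53 and 23.1 FPKM in mutant 1 to 4, against 44.9, 53.9 and 54.5 FPKM in wildtype 1 to 3 (log2 fold change -1.30 ± 0.59, limma adjusted p 0.171). Ccl8 stood at 8.37, 32.0, 10.4 and 8.78 FPKM in mutant 1 to 4, against 12.2, 15.5 and 14.2 FPKM in wildtype 1 to 3 (log2 fold change -0.13, limma adjusted p 0.866). In Ccl12 and Ccl8 mutant 2 lay above every wildtype library and the other 3 mutant libraries below.

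Ccl6 and Ccl9, ligands of Ccr1 that myeloid cells make in mice, showed the same split. Ccl6 stood at 12.7, 67.7, 12.3 and 11.9 FPKM in mutant 1 to 4, against 34.7, 34.9 and 44.1 FPKM in wildtype 1 to 3 (log2 fold change -0.95, limma adjusted p 0.294). Ccl9 stood at 5.89, 24.1, 4.08 and 4.68 FPKM in mutant 1 to 4, against 12.3, 13.5 and 17.7 FPKM in wildtype 1 to 3 (log2 fold change -0.87, limma adjusted p 0.293). Mutant 2 was 5.50 times the mean of the other mutant libraries in Ccl6 and 4.94 times in Ccl9. Ccl5, which T cells and natural killer cells make, had no such peak, at 6.75, 7.40, 3.91 and 11.9 FPKM in mutant 1 to 4 against 6.93, 14.3 and 12.5 FPKM in wildtype 1 to 3 (log2 fold change -0.56, limma adjusted p 0.3). Ccl3, Ccl4, Ccl5, Ccl6 and Ccl9 thus all had negative fold changes, with a median of -0.95, of which 2 passed the test.

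**Figure D3:**
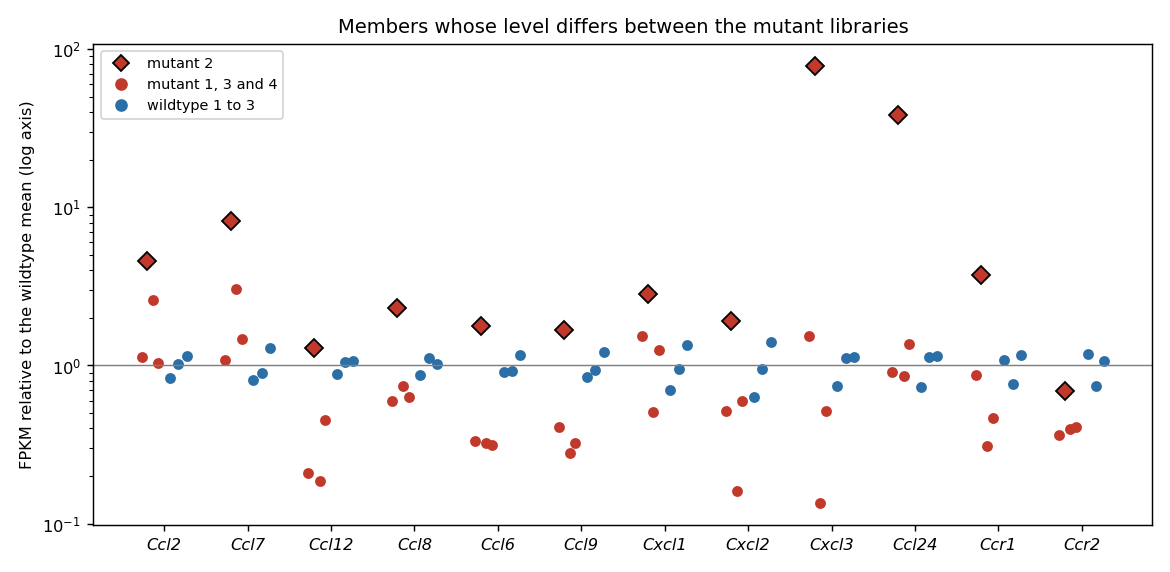
Level in each library relative to the mean of the wildtype libraries (FPKM ratio, log axis; line at 1), mutant left and wildtype right for each gene and mutant 2 as a diamond, for members in which mutant 2 stood above the other mutant libraries; they were picked after their values were seen. Mutant 2 lies above all wildtype libraries in Ccl6 (67.7 FPKM) and Ccl12 (65.7 FPKM), where the other 3 mutant libraries lie below them.

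Each library was left out in turn, and without mutant 2 the members divided differently: 9 ligands were called lower and 0 higher, and 4 receptors were lower and 2 higher. In that fit 6.55% of 13401 tested genes were lower and 5.21% higher. The ligands added were Ccl6 (log2 fold change -1.54, limma adjusted p 0.000624), Ccl9 (-1.39, 0.00240), Ccl12 (-1.85, 0.00923), Ccl8 (-0.55, 0.0287) and Cxcl14 (-0.82, 0.0424). The added receptor was Cxcr6, carried by natural killer T cells and activated T cells, with a log2 fold change of 0.59 and a limma adjusted p of 0.0302. Ccl2 and Ccl7 still did not pass, with log2 fold changes of 0.54 and 0.75 (limma adjusted p 0.338 and 0.217).

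Homeostatic and epithelial ligands did not pass the test in either direction, 0 of 4 and 0 of 3 tested, beside 16.1% of all tested genes that passed. Cxcl12, the ligand of Cxcr4 and Cxcr7 made by stroma and arterial endothelium, averaged 14.8 ± 1.10 FPKM in mutant and 17.5 ± 3.35 FPKM in wildtype libraries (log2 fold change -0.21, limma adjusted p 0.296), and was called lower when libraries were scaled on endothelial markers (0.0124). Ccl21b averaged 21.5 ± 2.92 FPKM in mutant and 16.8 ± 5.06 FPKM in wildtype libraries, with a log2 fold change of 0.37. Ccl19, another Ccr7 ligand, averaged 1.62 ± 1.12 FPKM in mutant and 0.884 ± 0.288 FPKM in wildtype libraries, with a log2 fold change of 0.39. Scaling on endothelial markers turned the sign of both, giving log2 fold changes of -0.04 for Ccl21b and -0.02 for Ccl19. Of the 75-base stretches of Ccl19 45.3%, and of Ccl27a 33.3%, also occur in other annotated genes, so their levels are uncertain too. Among epithelial ligands, Cxcl14 averaged 2.67 ± 1.86 FPKM in mutant and 3.82 ± 0.602 FPKM in wildtype libraries (log2 fold change -0.51). Ccl27a, the skin ligand of Ccr10, averaged 5.15 ± 1.54 FPKM in mutant and 5.61 ± 0.760 FPKM in wildtype libraries (log2 fold change -0.13). Ccl25, the ligand of Ccr9, averaged 1.06 ± 0.509 FPKM in mutant and 1.12 ± 0.298 FPKM in wildtype libraries, and its log2 fold change of -0.06 turned positive without mutant 2 or wildtype 1.

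Of the remaining ligands, Cx3cl1, the membrane-tethered ligand of Cx3cr1 that endothelium and tubules make, averaged 36.9 ± 9.32 FPKM in mutant and 31.0 ± 6.28 FPKM in wildtype libraries (log2 fold change 0.24, limma adjusted p 0.457). Its sign turned when libraries were scaled on endothelial markers (log2 fold change -0.17). Xcl1, which natural killer and T cells secrete for dendritic cells that carry Xcr1, averaged 5.96 ± 4.64 and 3.46 ± 0.501 FPKM in mutant and wildtype libraries, with mutant 4 at 12.8 FPKM. Ccl22 averaged 1.92 ± 0.930 FPKM in mutant and 3.44 ± 0.13 FPKM in wildtype libraries, with mutant 3 the lowest library at 0.538 FPKM. Its limma adjusted p was 0.140, and 0.0218 without mutant 3.

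Lymphoid receptors other than Ccr9 did not pass. Cxcr6 averaged 4.03 ± 1.12 FPKM in mutant and 2.62 ± 0.281 FPKM in wildtype libraries (log2 fold change 0.45, limma adjusted p 0.120). Cxcr3, which activated T cells and natural killer cells carry, averaged 1.196 ± 0.535 FPKM in mutant and 1.77 ± 0.475 FPKM in wildtype libraries. Cxcr5, a receptor of B cells and follicular helper T cells, averaged 2.81 ± 0.479 FPKM in mutant and 3.40 ± 1.16 FPKM in wildtype libraries. The log2 fold change was -0.35 for Cxcr3 and -0.19 for Cxcr5, which turned positive without wildtype 2. When libraries were scaled on endothelial markers, Cxcr3, Cxcr5 and Ccr7 were called lower (limma adjusted p 0.0425, 0.0447 and 0.0171), and Ccr7 was also called lower with array weights (0.0439). Cxcr7 (Ackr3 in the reference annotation), the atypical receptor of Cxcl12, stood at 10.4, 11.3, 12.0 and 13.9 FPKM in mutant 1 to 4, against 12.1, 11.8 and 10.6 FPKM in wildtype 1 to 3. The groups overlapped (log2 fold change 0.04 ± 0.10, limma adjusted p 0.819), and the sign turned without mutant 4 or wildtype 3 and when libraries were scaled on endothelial markers (log2 fold change -0.37).

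Members under the filter had means under 1 FPKM, though some exceeded that level in some libraries. The 13 ligands were Ccl1, Ccl11, Ccl17, Ccl20, Ccl24, Ccl26, Ccl27b, Ccl28, Cxcl5, Cxcl11, Cxcl13, Cxcl15 and Cxcl17, with values of 0 to 5.30 FPKM, and Ccl26 was listed at 0 in every library. The 9 receptors were Ccr3, Ccr4, Ccr6, Ccr8, Ccr10, Ccr1l1, Cxcr1, Cxcr2 and Xcr1, with values of 0 to 2.38 FPKM. Cxcr2, the receptor of Cxcl1, Cxcl2 and Cxcl3 on neutrophils, was among them. These genes were not tested at this filter.

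Summed over all members of a class, ligands reached 898, 1920.0, 638 and 1066 FPKM in mutant 1 to 4, against 1742, 2212 and 2339 FPKM in wildtype 1 to 3. Receptors reached 98.5, 150.2, 98.9 and 97.5 FPKM in mutant 1 to 4, against 198, 253 and 269 FPKM in wildtype 1 to 3. Receptor sums thus did not overlap between groups, while the ligand sum of mutant 2 lay inside the wildtype range. The receptor sums include the 4 receptors called lower and were not taken without them. Ccl3 and Ccl4 together made up 30.7 to 46.6% of the ligand sum in mutant and 65.9 to 67.2% in wildtype libraries. Left out, the rest of the ligands summed to 549, 1241, 442 and 569 FPKM in mutant 1 to 4, against 571, 743 and 799 FPKM in wildtype 1 to 3, ranges that overlap. The ratio of ligand to receptor sums was 6.45 to 12.8 in mutant and 8.70 to 8.81 in wildtype libraries.

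**Figure D4:**
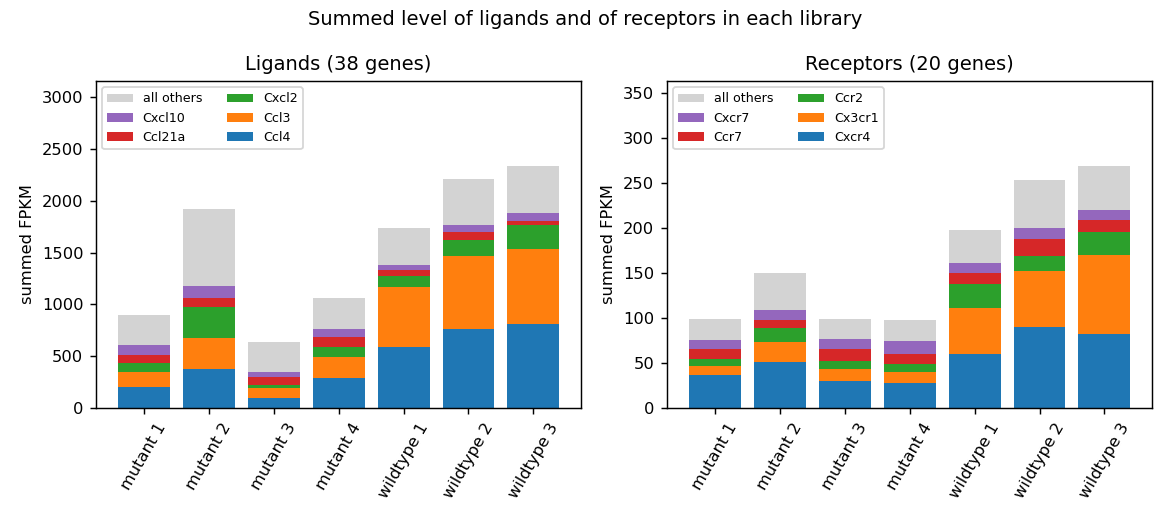
Summed FPKM of all 38 ligands (left) and all 20 receptors (right) in each library, mutant left of wildtype, as stacked bars that show 5 genes of each class in colour and all others in grey. Receptor sums separate the groups (97.5 to 150.2 FPKM in mutant and 198 to 269 FPKM in wildtype libraries), and the ligand sums overlap, with mutant 2 at 1920.0 FPKM. Receptors called lower are part of the receptor sums, which were not taken without them.

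Of 35 listed ligand and receptor pairs, 19 had both members tested. Both fold changes were negative in 10 pairs and of opposite sign in 9. Pairs share members, so they are not separate results. Some signs rest on small log2 fold changes that turned in alternative runs, such as Ccr1 (-0.08), Cxcr7 (0.04) and Ccl25 (-0.06). In 10 pairs 1 member was called: Cx3cr1 was lower (log2 fold change -2.16) while Cx3cl1 was not called (0.24), Cxcl16 was lower (-1.66) while Cxcr6 was not called (0.45), and Cxcr4 was lower (-1.08) while Cxcl12 was not called (-0.21). Ccr2 was lower (-1.06) beside uncalled ligands of both signs, Ccl2 (0.95), Ccl7 (1.30) and Ccl12 (-1.30).

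Many members lie in clusters of the genome. Counted over whole chromosomes, 14 of the 58 lie on chromosome 11, 12 on chromosome 9 and 11 on chromosome 5. Some of these lie apart from the clusters, such as Cxcl16, Ccr7 and Ccr10 on chromosome 11. On chromosome 11, Ccl3, Ccl4 and Cxcl16 were called lower. Ccl5, Ccl6, Ccl8, Ccl9, Ccl12 and Ccr7 had negative fold changes that did not pass, and Ccl2 and Ccl7 positive ones that did not pass. Differences between neighbouring genes were not tested. On chromosome 5, Cxcl9 was lower and its neighbour Cxcl10 was not called.

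**Figure D5:**
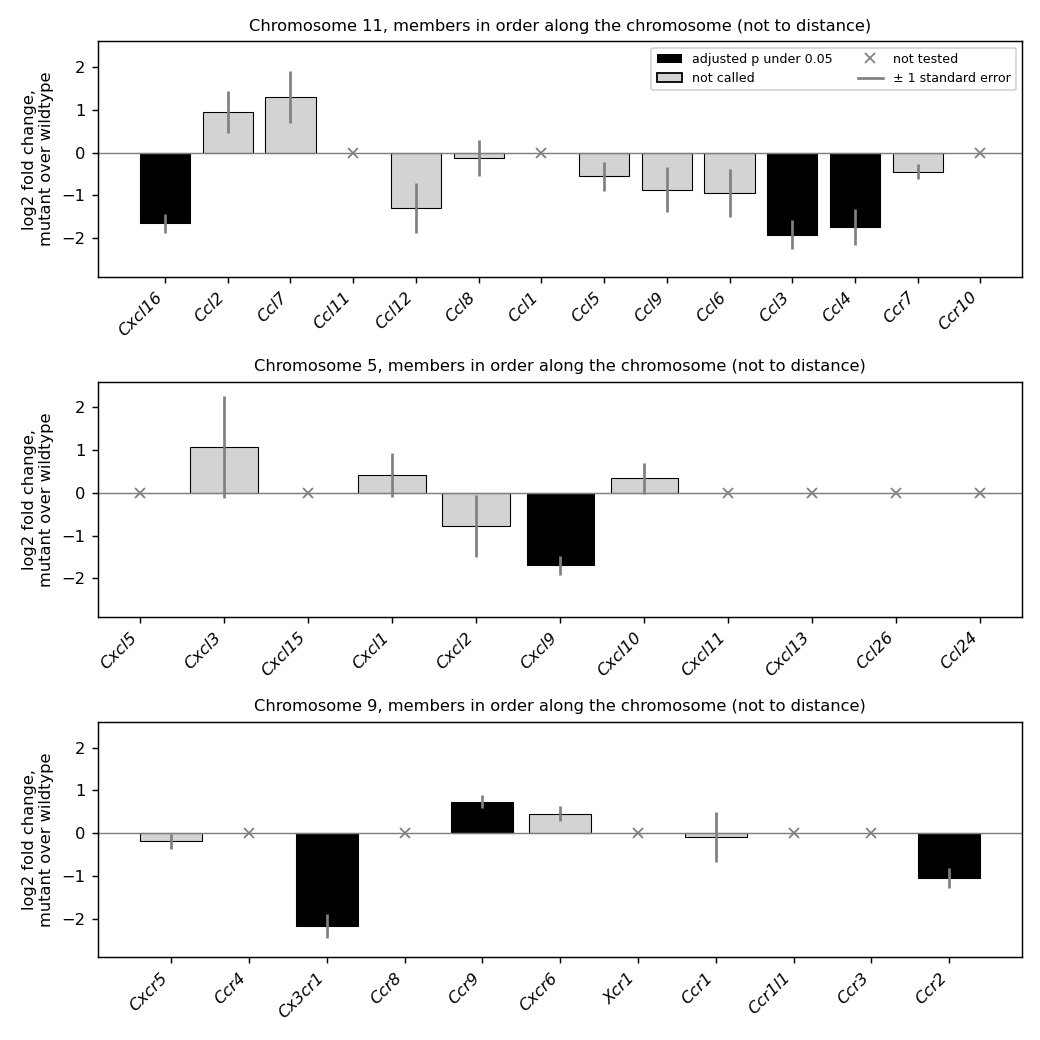
Log2 fold change, mutant over wildtype (bars, with 1 standard error; black where called), of members placed in their order along chromosomes 11, 5 and 9, with crosses for members that were not tested. On chromosome 11 Ccl2 and Ccl7 lie at 0.95 and 1.30, neither called, and Ccl3 and Ccl4 at -1.92 and -1.74, both called.

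Genes that act around chemokines were counted by lists of their role. Over all tested genes 7.34% were called lower and 8.76% higher, the shares to set beside each list count here and below. No list was tested as a set. Of 26 tested genes that carry signals from chemokine receptors, 13 were lower, 1 was higher and 12 were not called. Their median log2 fold change was -0.54. The 4 named next had the smallest p of the list, and all are among the 13 called lower. Plcb2, a phospholipase driven by G protein subunits, averaged 2.54 ± 0.460 FPKM in mutant and 10.3 ± 1.21 FPKM in wildtype libraries (log2 fold change -1.67, limma adjusted p 0.000653). Adrbk2, a kinase that desensitizes receptors, averaged 8.54 ± 0.987 FPKM in mutant and 19.9 ± 1.21 FPKM in wildtype libraries (log2 fold change -1.14, limma adjusted p 0.000907). Arrb2, the arrestin that takes them inside, averaged 24.5 ± 5.72 FPKM in mutant and 85.5 ± 12.1 FPKM in wildtype libraries (log2 fold change -1.78, limma adjusted p 0.00146). Pik3cg, the leukocyte phosphoinositide 3-kinase, averaged 1.90 ± 0.316 FPKM in mutant and 6.41 ± 1.60 FPKM in wildtype libraries (log2 fold change -1.34, limma adjusted p 0.00202). These 4 calls held in every alternative run.

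Of 4 tested genes on a list of atypical and related receptors (Ccbp2, Cxcr7, Ccrl2 and Pitpnm3), 1 was higher. Cxcr7 is also counted among the tested receptors above. Ccbp2 (Ackr2), a scavenger of inflammatory Ccl ligands on lymphatic endothelium, stood at 2.05, 3.38, 2.74 and 3.79 FPKM in mutant 1 to 4, against 1.57, 0.659 and 1.11 FPKM in wildtype 1 to 3 (log2 fold change 0.92, limma adjusted p 0.0206). The call was lost without wildtype 2 or 3 (limma adjusted p 0.0824 and 0.0646) and under scaling on endothelial markers (0.0809). It was also lost with the replicate number as a block (0.15). Of 4 ligands with chemokine activity that lie outside the naming rule, Cklf was lower (log2 fold change -0.63, limma adjusted p 0.0150). Mif, a cytokine that also binds Cxcr4, was higher (0.63, 0.0250). With the replicate number as a block neither was called (limma adjusted p 0.0908 for Cklf and 0.0998 for Mif). Mif was not called without wildtype 1, 2 or 3 (limma adjusted p 0.0718, 0.0907 and 0.0757), nor after rescaling to the same total (0.0756), quantile normalization (0.0541) or scaling on endothelial markers (0.336).

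Of 15 genes that build or modify the heparan sulfate on which chemokines are held, 3 were lower and 2 higher. Of all tested genes 7.34% were lower and 8.76% higher. Sdc3, a syndecan core protein, and Ndst2, a heparan sulfate sulfotransferase, were lower (log2 fold changes -0.66 and -0.51, limma adjusted p 0.00411 and 0.00593). Hs3st1, another sulfotransferase, was higher (0.57, 0.0063), although not under scaling on endothelial markers (0.361). With the replicate number as a block Ndst2 and Hs3st1 lost their calls (limma adjusted p 0.0641 and 0.0858). Extl3, a chain-building glycosyltransferase, was lower (-0.35, limma adjusted p 0.0290), and lost its call without mutant 1 or 2 (0.0540 and 0.0533) and without wildtype 1 or 2 (0.0913 and 0.123), and after rescaling to the same total (0.0926).

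Of 9 tested proteases that trim or shed chemokines, 3 were higher and 1 lower, beside 8.76% and 7.34% of all tested genes. Cpm, a membrane carboxypeptidase, was higher (log2 fold change 0.61, limma adjusted p 0.0077), but not under scaling on endothelial markers (0.33) or with the replicate number as a block (0.0505). Adam10, which sheds Cx3cl1 and Cxcl16, was higher (0.33, limma adjusted p 0.0361), as was Mmp2 (0.60, 0.0496), and Dpp4, which trims the N terminus of Cxcl12, was lower (-0.34, 0.0442). These last 3 calls were fragile, and all were lost with the replicate number as a block (limma adjusted p 0.145 for Adam10, 0.121 for Mmp2 and 0.138 for Dpp4). Adam10 lost its call without mutant 1, 2 or 4 (limma adjusted p 0.0747, 0.0745 and 0.0574) or wildtype 1, 2 or 3 (0.0655, 0.140 and 0.103), and under each of the 4 scalings (0.0687 to 0.662). Mmp2 lost it without mutant 1, 2 or 4 (0.102, 0.0904 and 0.103) or wildtype 1 or 3 (0.145 and 0.147), and under each of the 4 scalings (0.051 to 0.394). Dpp4 lost it without mutant 2, 3 or 4 (0.0862, 0.0720 and 0.0883) or wildtype 1, 2 or 3 (0.127, 0.165 and 0.0686), and after rescaling to the same total (0.0766) or quantile normalization (0.0641).

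Of 21 cytokines, receptors and transcription factors that induce chemokines, 2 were higher and 3 lower, beside 8.76% and 7.34% of all tested genes. Il6 stood at 94.3, 75.4, 16.3 and 33.8 FPKM in mutant 1 to 4, against 5.40, 8.66 and 5.04 FPKM in wildtype 1 to 3 (log2 fold change 2.67, limma adjusted p 0.0184). Mutant 1 was the highest library for Il6. Il1r1, the receptor of interleukin 1, was higher (log2 fold change 0.48, limma adjusted p 0.0149). Ifngr1, a chain of the receptor for interferon-gamma, which induces Cxcl9 and Cxcl10, was lower (log2 fold change -0.43, limma adjusted p 0.0196). The call for Il6 was lost without wildtype 1, 2 or 3 (limma adjusted p 0.0572, 0.0527 and 0.0672) and those for Il1r1 and Ifngr1 without wildtype 2 (0.0701 and 0.0845) or wildtype 3 (0.0528 and 0.0637). Il1r1 also lost its call after rescaling to the same total (0.0530) and under scaling on endothelial markers (0.671). With the replicate number as a block Il6, Il1r1 and Ifngr1 all lost their calls (limma adjusted p 0.0571, 0.0983 and 0.14).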

How the data were processed

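Polyadenylated RNA of 7 libraries was selected with oligo(dT) beads and made into stranded paired-end libraries, per the labels' protocols. The tools listed in the submitters' processing notes, without their role or order, are RSEM 1.2.28, Bowtie2 2.3.4.1 and Trimmomatic 0.39, and the build listed is mm10. The authors deposited FPKM, per the file headers. Which annotation was used, whether counting used strand and how libraries were scaled is not given in the sources used here.

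The table held 27014 entries. Those lacking a gene name (429, holding 18.35 to 29.26% of the FPKM of a library) were left out, and symbols on several entries were summed. No column was left unmapped (0). FPKM keep no read totals: among entries under 0.3 FPKM, 32.9 to 37.53% fell on ratios of whole reads between libraries (tolerance 0.01 on the log2 scale), too few to recover counts. They put the depth relative to wildtype 1 at 0.711 (wildtype 3) to 0.891 (mutant 4), and absolute depth cannot be had from them. Identical values were found in 0 pairs of libraries.

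Genes with a mean of at least 1 FPKM were tested with R 4.3.3 and limma 3.58.1 on log2(FPKM + 1) (empirical Bayes with an intensity trend, two-sided, Benjamini-Hochberg adjustment over all 13420 genes), after a test on simulated data. Errors beside means are SDs of FPKM, and errors beside log2 fold changes are SEs. The members, the lists and the tests were chosen with earlier results of these data known. Of the genes that the rule below takes, 2 are not reported here, though counts, sums and medians include them. Named were the other members, with values in every library for those called and for the 5 ligands and 5 receptors with the highest mean, and from each list of related genes up to 4 called genes with the smallest p. Other members and marker genes given in full, such as the ligands that peaked in mutant 2, were chosen after their values were seen. Alternatives were other pseudocounts and filters, 4 scalings, array weights, no trend, the replicate number as a block, the first of repeated entries, and leaving out each library. Gene coordinates, counted from 1, and overlaps come from GENCODE M21 (GRCm38, which mm10 is), where all 58 members matched, and promoters from RefSeq on GRCm38.p6, where 43 members matched.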

Additional observations from a re-analysis of the deposited data

Results flagged for a closer look

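Among 42 members that reached 1 FPKM in any library, 9 had a mutant library far from the other 3, judged by the gap to the nearest library divided by the range of the group (past Dixon's 95% critical value for 4 samples, which chance passes in about 1 of 20 groups). In 7 of the 9 the library was mutant 2, and it was the highest: Ccl24 (gap ratio 0.986, 5.30 FPKM), Ccl6 (0.985, 67.7 FPKM), Cxcl3 (0.982, 41.3 FPKM), Ccl8 (0.913, 32.0 FPKM), Ccl9 (0.909, 24.1 FPKM), Ccr2 (0.866, 15.8 FPKM) and Ccr1 (0.835, 12.2 FPKM). Genes measured in 1 library share that library, so these are not 7 separate events. The rule was not applied to all genes, so 9 of 42 has no share over all genes beside it. Cx3cl1 was set apart by mutant 1, with a ratio of 0.889 and 50.8 FPKM, against 31.6 to 33.7 FPKM in the other mutant libraries. Ccl22 was set apart by mutant 3, with a ratio of 0.842 and 0.538 FPKM, against 2.25 to 2.57 FPKM in the other mutant libraries. The wildtype group of 3 was not examined in this way.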

How the results depend on the processing

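Over the tested members and all alternatives, 609 values kept their direction and side of the threshold, 26 lost a call, 16 gained one and 20 turned sign. Under scaling on 22 endothelial markers, which moved the median log2 fold change of all genes to -0.37 (0.04 without it), 139 genes were higher and 4136 lower, with 8 ligands and 7 receptors lower and 0 receptors higher, and the log2 fold change turned for Cxcl10 (-0.07), Ccl21b (-0.038), Ccl19 (-0.017), Cx3cl1 (-0.17) and Cxcr7 (-0.37). The other scalings gave medians of 0.0018 to 0.0291, though 576 genes were higher after rescaling to the same total. Array weights gave 2258 genes higher and 1812 lower, and turned Cxcr7 (-0.027) and Ccr1 (0.42). With a mean of at least 5 FPKM, Ccr9 was not tested and 0 receptors were higher.

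Leaving out 1 library gave 324 to 1205 genes higher, 521 to 1085 lower, 3 to 9 ligands lower, 0 to 0 ligands higher, 1 to 4 receptors lower and 0 to 2 receptors higher. Across those fits the log2 fold change spanned 0 for Ccl25 (-0.18 to 0.059, above 0 without mutant 2 or wildtype 1), Ccl8 (-0.55 to 0.053, without mutant 1 or 4), Cxcr7 (-0.028 to 0.099, below 0 without mutant 4 or wildtype 3), Cxcr5 (-0.30 to 0.022, above 0 without wildtype 2) and Ccr1 (-0.65 to 0.25, without mutant 3 or 4 or wildtype 3).

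Libraries with the same replicate number did not deviate together (r -0.061, 0.026 and -0.281 over genes). Mutant and wildtype libraries with unlike numbers gave r of -0.146 to 0.244. So few values cannot exclude that the numbers pair libraries, and the labels do not say whether they do. The replicate block, which leaves mutant 4 a level of its own, gave 261 genes higher and 423 lower. Among members 2 ligands and 1 receptor were lower and 0 receptors higher, and the sign turned for Ccl8 (0.032), Cxcr7 (-0.028) and Ccr1 (0.15). Cxcl9, Cxcl16 and Cx3cr1 kept their calls. Those of Ccl3, Ccl4, Cxcr4, Ccr2 and Ccr9 were lost (limma adjusted p 0.0551, 0.0926, 0.0616, 0.165 and 0.0679). The causes were not tested. Absolute depth is unknown, so the precision of low members such as Ccr9 rests on the spread between 7 libraries alone.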

Other observations

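The platelet chemokines Pf4 and Ppbp, which the naming rule leaves out, were highest among the mutant libraries in mutant 2, and Pf4 was higher still in wildtype 3. Pf4 stood at 7.55, 58.1, 8.93 and 7.18 FPKM in mutant 1 to 4, against 28.5, 30.3 and 63.6 FPKM in wildtype 1 to 3 (limma adjusted p 0.193). Ppbp stood at 1.15, 16.8, 0.837 and 0.845 FPKM in mutant 1 to 4, against 1.55, 1.49 and 2.42 FPKM in wildtype 1 to 3 (limma adjusted p 0.845). Ccrl2, an atypical receptor that holds chemerin at the cell surface, stood at 31.0, 64.6, 34.4 and 44.9 FPKM in mutant 1 to 4, against 61.2, 79.98 and 78.0 FPKM in wildtype 1 to 3 and did not pass (limma adjusted p 0.0676). Its level in mutant 2 lay inside the range of the wildtype libraries, and the level in the other mutant libraries lay below it. These 3 genes were chosen for mention after their values were seen.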
